A study of Mus musculus with 6 samples.

Results

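The 9 genes described here encode amino acid carriers of the plasma membrane that are known targets of the transcription factor ATF4, or partners of such targets: Slc7a11, Slc7a5, Slc3a2, Slc7a1, Slc7a3, Slc38a2, Slc1a4, Slc1a5 and Slc6a9. They were chosen by name, as were the gene lists set beside them, with earlier results of these data known. Counts among them are thus not independent of the data. Their 9 rows were read from a table of 32285 Ensembl genes. The table holds RNA-seq read counts of whole kidney from 6 mice, all labelled as females of 100 weeks. All 6 bore a mutation in TrnE, which encodes the mitochondrial tRNA for glutamate, and differed in mutation load, the percentage labelled for each mouse. The control group had loads of 10%, 5% and 15% in controls 1 to 3, and the high-load group had 75%, 75% and 80% in high-load 1 to 3. The comparison is thus between a low and a high load, and no mouse was labelled as free of the mutation. The labels give neither the strain nor the way the load was measured.

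ATF4 is made when stress kinases phosphorylate the translation factor eIF2, for example when amino acids run short or mitochondria fail. It binds a short DNA element, the C/EBP-ATF response element, together with C/EBP partners, and switches on genes that make, import and attach amino acids. Most amino acid uptake in the kidney runs through other carriers: proximal tubule cells take amino acids from the filtrate through apical carriers such as Slc6a19 and the pair Slc3a1 and Slc7a9, and pass them to the blood through Slc7a7 and Slc7a8, each bound to Slc3a2.

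The library labelled control 2 went against its label as a female. Xist, the RNA that silences the second X chromosome, had 3 counts in it against 14002 to 17028 in the other 5 libraries. The Y-linked genes Ddx3y, Uty, Kdm5d and Eif2s3y had 1110, 403, 421 and 1276 counts in it and 0 in the others. High-load 1 stood apart in its tissue markers. Its 12 proximal tubule markers summed to 4770 CPM (counts scaled to a common library size with TMM factors), against 9803 and 13886 CPM in the other high-load libraries and 16416 to 19607 CPM in the controls. Its 5 urothelial markers, genes of the lining of the renal pelvis, summed to 208 CPM. They summed to 40.1, 20.8 and 12.4 CPM in controls 1 to 3 and to 2.06 and 1.61 CPM in high-load 2 and 3. Without high-load 1 the median log2 fold change of these 5 was -5.40, so the groups differ in these markers in that fit as well. The 6 B and plasma cell markers summed to 1201 CPM in high-load 1 against 96.3 to 323 CPM elsewhere. In whole tissue, fewer cells of a type and less RNA per cell cannot be told apart. The fold changes of the 9 genes and the medians of the gene lists are given with all 6 libraries and without each of these 2. Total counts were 17449270 to 18865997 per library.

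Slc7a11, Slc7a5, Slc7a1, Slc7a3 and Slc1a5 were higher in every high-load library than in every control, while Slc3a2, Slc38a2, Slc1a4 and Slc6a9 overlapped between the groups. The carriers that were apart bring in cystine, large neutral amino acids, cationic amino acids and glutamine. None of the 9 passed edgeR's quasi-likelihood test at an adjusted p of 0.05, which 0.0188% of the 15955 genes tested passed upward and 0% downward. Slc7a11, Slc7a5, Slc7a1 and Slc1a5 had edgeR adjusted p values of 0.0919 to 0.0999, under the looser limit of 0.1 that 2.59% of genes passed upward and 0.608% downward. At an unadjusted p under 0.05 the same test gave 5 of the 9, all higher, beside 14.0% of all genes higher and 10.2% lower. DESeq2 called those 5 at an adjusted p under 0.05, as it did 6.67% of its 16091 genes upward, with 624 downward. By limma-voom 0 were called, with adjusted p of 0.117 to 0.578 for the 9 genes. Groups did not overlap in 5 of the 9, all higher, beside 17.1% of all genes higher and 15.8% lower.

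Without control 2 the same 5 genes had groups apart, beside 21.5% of genes higher, and an unadjusted p under 0.05, beside 9.84%. Without high-load 1 they were joined by Slc3a2 as genes with groups apart, beside 20.7%, and the 5 kept an unadjusted p under 0.05, beside 10.6%. The median log2 fold change of the 9 genes was 0.80, against 0.0067 over all tested genes, and it was 0.72 without control 2 and 0.77 without high-load 1. All 9 passed the filter on low counts, Slc7a11 only through its high-load libraries, so its call is not independent of its high-load level. Of the other 8, 4 had groups apart, 4 had an unadjusted p under 0.05, 3 had an edgeR adjusted p under 0.1 and 4 were called by DESeq2, and their median was 0.67. With 2 controls or 2 high-load libraries left, the adjusted p of each of the 5 was 0.260 to 0.301 without control 2 and 0.114 to 0.223 without high-load 1.

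**Figure D1:**
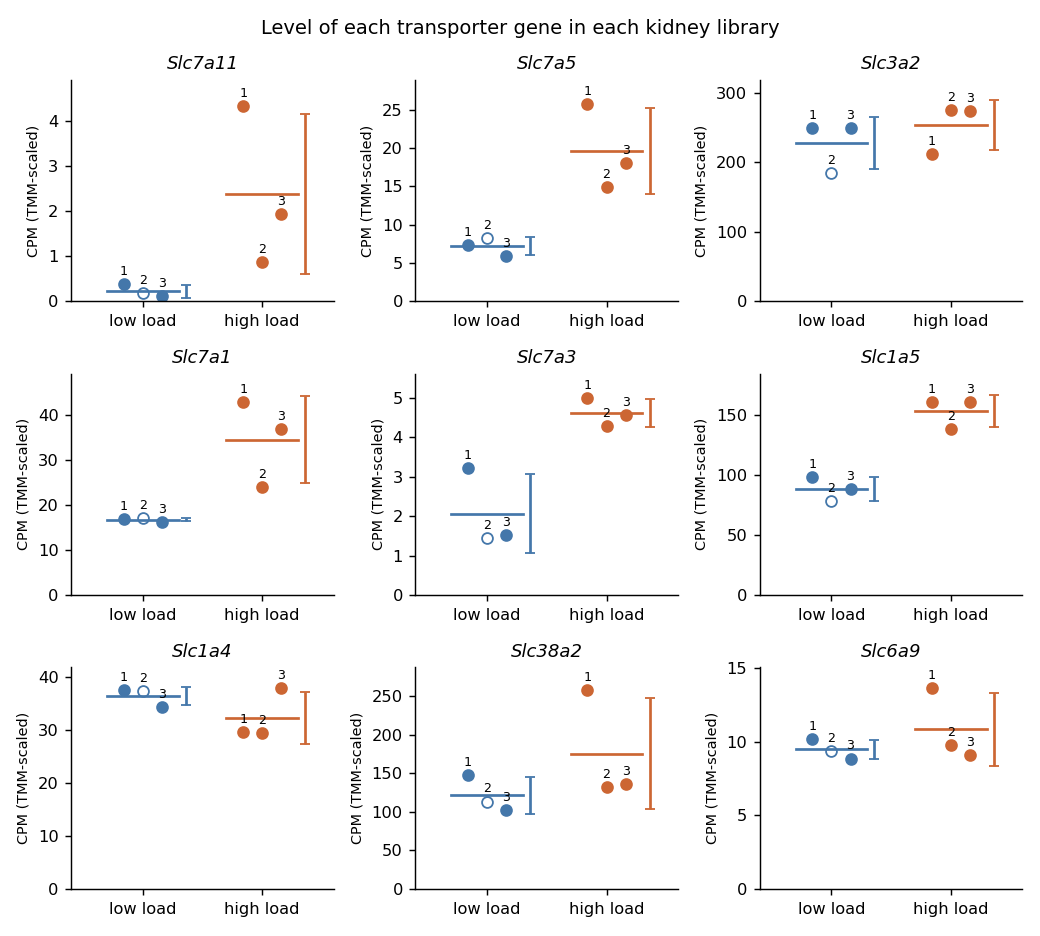
Level of each of the 9 genes in each library, in TMM-scaled CPM on linear axes that start at 0, with numbered points for replicates, a line at the group mean and a bar for ± 1 SD (n = 3). The open point is control 2, and the groups are apart in Slc7a11, Slc7a5, Slc7a1, Slc7a3 and Slc1a5.

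Slc7a11 encodes xCT, the light chain that exchanges glutamate for cystine, the source of cysteine for glutathione. It lies on chromosome 3 (ENSMUSG00000027737, 49892526 to 50443614, minus strand, mm10). Controls 1 to 3 had 7, 3 and 2 counts, and high-load 1 to 3 had 92, 16 and 35. As levels these were 0.388, 0.182 and 0.109 CPM, against 4.34, 0.868 and 1.95 CPM. All 3 high-load libraries lay above the controls, and the highest of them, high-load 1, was the library with few proximal tubule and many urothelial and B cell transcripts; the part of that in its level was not tested. Its log2 fold change was 3.37 with SE 0.75 (edgeR adjusted p 0.0999), or 3.24 with SE 0.93 without control 2 and 2.60 with SE 0.61 without high-load 1. Pooled over libraries, 143 counts stood against 12, a ratio of 10.9 with a 95% exact interval of 6.07 to 21.7 that covers counting error only. Even at high load this was a rare transcript.

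The table of RefSeq promoter windows for mm10 (GRCm38.p6), each 250 bases before to 50 after a gene's start, held 9 windows for 6 of the 9 genes. They were searched on both strands for TGATGNAA, the core of the C/EBP-ATF response element. The Slc7a11 window held 2 copies, both spelled TGATGCAA and on opposite strands, the first starting 66 and the second 47 bases before the start. Slc1a4 held 1 copy across its start, and Slc7a1, Slc3a2, Slc38a2 and Slc6a9 held none in these windows. Of all 32851 windows, 3.97% held TGATGNAA at least once and 0.0700% at 2 or more places. Known elements of some of these genes lie in introns or exons outside such windows. The stretches below are shown because Slc7a11 had the highest fold change of the 9, Slc1a4 shares the motif but overlapped between groups, and Slc7a1 had groups apart with no copy here. Each runs 5′ to 3′ on the gene's strand (minus for all of them), and capitals mark copies of TGATGNAA on either strand.
Slc7a11, chr3:50443614-50443733: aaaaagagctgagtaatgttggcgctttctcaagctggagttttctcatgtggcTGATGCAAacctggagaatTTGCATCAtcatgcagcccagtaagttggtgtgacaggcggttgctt
Slc1a4, chr11:20332704-20332823: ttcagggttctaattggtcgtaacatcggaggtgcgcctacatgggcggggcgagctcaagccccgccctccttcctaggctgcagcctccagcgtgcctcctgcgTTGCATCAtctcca
Slc7a1, chr5:148399905-148400024: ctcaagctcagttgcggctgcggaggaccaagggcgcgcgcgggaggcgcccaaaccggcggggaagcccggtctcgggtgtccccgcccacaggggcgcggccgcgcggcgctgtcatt

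Slc7a5 encodes LAT1, which imports large neutral amino acids such as leucine in exchange for glutamine, and it lies on chromosome 8 (ENSMUSG00000040010, 121881150 to 121907694, minus strand). Controls 1 to 3 stood at 7.37, 8.25 and 5.93 CPM, and high-load 1 to 3 at 25.8, 14.9 and 18.1 CPM. The lowest high-load library was above the highest control. Its log2 fold change was 1.45 with SE 0.24 (edgeR adjusted p 0.0936), or 1.55 without control 2 and 1.20 without high-load 1.

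Slc3a2 encodes the heavy chain, 4F2hc or CD98, that carries Slc7a5, Slc7a11 and other light chains to the cell surface (ENSMUSG00000010095, chromosome 19, 8706882 to 8723369, minus strand). The control libraries stood at 249.98, 185 and 249.6 CPM, and those of high load at 212, 276 and 274 CPM. Control 2 was the lowest library and high-load 1 the next, and the groups overlapped with or without control 2 but not without high-load 1. A log2 fold change of 0.15 was fitted, SE 0.17 (edgeR adjusted p 0.609), and it was 0.02 without control 2 and 0.27 with SE 0.15 without high-load 1.

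Counts of 2 genes in the same library can be set against each other with no scaling between libraries. For every 100 counts of Slc3a2 there were 2.95, 4.46 and 2.38 of Slc7a5 in control kidneys and 12.1, 5.39 and 6.59 at high load. The groups did not overlap, and an exact two-sided permutation test gave p = 0.1, the smallest that 3 against 3 allows. For Slc7a11 the same figures were 0.155, 0.0985 and 0.0436 in controls against 2.05, 0.315 and 0.710 at high load, with an exact permutation p of 0.1. These ratios were chosen after the values were seen, with the groups already apart in Slc7a5 and Slc7a11, so their p values add no support.

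Set on a scale per length (CPM per kilobase of exon), Slc3a2 stood among its light chains as a far more abundant transcript than Slc7a5 or Slc7a11. The main light chains were those of the proximal tubule. Slc7a7, which exports cationic amino acids, stood at 57.7, 45.4 and 58.1 CPM per kilobase in controls and 18.5, 57.6 and 64.6 at high load. Slc7a8, which carries neutral amino acids across the same membrane, stood at 43.0, 27.0 and 46.8 in controls and 17.9, 45.5 and 54.8 at high load, per kilobase as well. In both genes high-load 1 was the lowest of the 6 libraries and the other 2 high-load libraries lay within or above the controls. Slc7a5 and Slc7a11 together made up 1.91%, 2.90% and 1.48% of the summed level of 6 light chains (with Slc7a6, Slc7a7, Slc7a8 and Slc7a10) in controls and 14.4%, 3.69% and 3.90% at high load. The groups were apart, and high-load 1, low in Slc7a7 and Slc7a8, held the highest share. This share was built on Slc7a5 and Slc7a11, in which the groups were already apart, so it adds no support. Exons of Slc7a7 and Slc7a10 overlap genes on the other strand, Oxa1l and Lrp3.

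**Figure D2:**
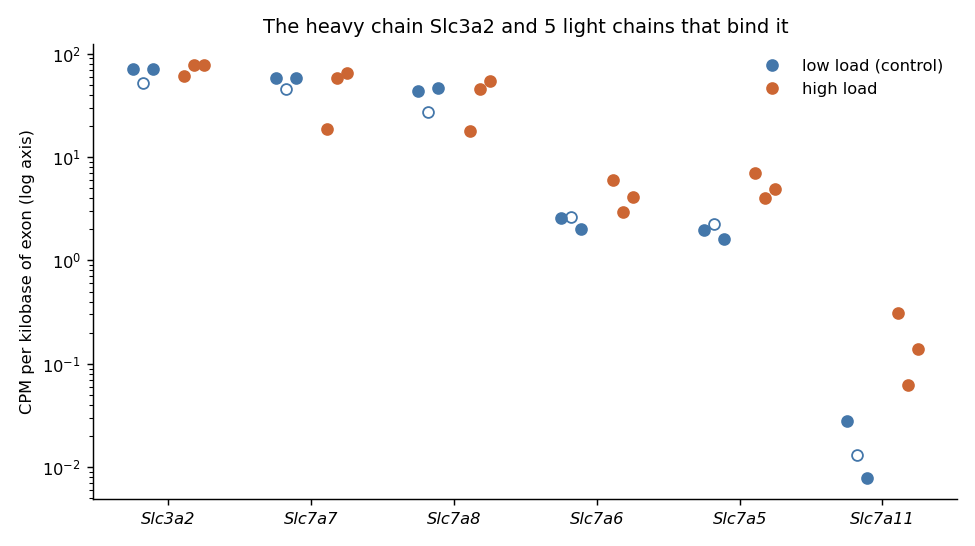
Level of the heavy chain Slc3a2 and 5 light chains in each library, in CPM per kilobase of exon on a log axis, with points for controls 1 to 3 (control 2 open) and high-load 1 to 3 from left to right. Slc7a5 and Slc7a11 lie higher in every high-load library, as does Slc7a6, while Slc7a7 and Slc7a8 are lowest in high-load 1.

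The cationic carriers Slc7a1 and Slc7a3, CAT1 and CAT3, import arginine, lysine and ornithine without a heavy chain. Slc7a1 (ENSMUSG00000041313, chromosome 5, 148327410 to 148399904, minus strand) stood at 17.0, 17.1 and 16.3 CPM in the controls, close together, and at 42.9, 24.0 and 36.9 CPM at high load. The 3 high-load libraries were above the controls and spread more widely. Its log2 fold change was 1.04 with SE 0.21 (edgeR adjusted p 0.0955), or 1.05 without control 2 and 0.86 without high-load 1.

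Slc7a3 (ENSMUSG00000031297, chromosome X, 101079210 to 101086020, minus strand) stood at 3.21, 1.46 and 1.52 CPM in controls and 5.00, 4.28 and 4.56 CPM at high load. Its high-load libraries were close together and control 1 was the control nearest to them. Fitted over all libraries, the log2 fold change was 1.16 with SE 0.34 (edgeR adjusted p 0.131), 0.96 without control 2 and 1.10 without high-load 1, and leaving out control 1 gave 1.62. Unlike Slc7a11 and Slc7a5, its level in high-load 1 was close to that of the other high-load libraries.

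Slc1a5 and Slc1a4, ASCT2 and ASCT1, are sodium-dependent exchangers of small neutral amino acids, and Slc1a5 also takes glutamine. Slc1a5 (ENSMUSG00000001918, chromosome 7, 16781340 to 16798274, plus strand) stood at 98.0, 78.0 and 88.2 CPM in controls and 161, 138 and 161 CPM at high load. The groups were far apart for their spread, and the fold change of 1.74 was the smallest among the 5 genes with groups apart. The log2 fold change was 0.80 with SE 0.12 (edgeR adjusted p 0.0919), or 0.72 without control 2 and 0.77 without high-load 1.

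Slc1a4 (ENSMUSG00000020142, chromosome 11, 20302180 to 20332713, minus strand) stood at 37.6, 37.4 and 34.4 CPM in controls and 29.5, 29.4 and 37.9 CPM at high load. High-load 3 was the highest of all 6 libraries and the other high-load libraries were the lowest, so the groups overlapped. The log2 fold change was -0.18 with SE 0.12 (edgeR adjusted p 0.402), and it was -0.31 to -0.11 with 1 library left out. The -0.31 came without high-load 3, where the groups were apart downward (edgeR unadjusted p 0.0186, adjusted p 0.228). For every 100 counts of Slc1a4 there were 261, 209 and 256 of Slc1a5 in controls and 544, 469 and 425 at high load. These groups did not overlap, with an exact two-sided permutation p of 0.1. This ratio too was chosen after its values were seen, with the groups already apart in Slc1a5, so its p adds no support.

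Slc38a2 encodes SNAT2, the sodium-coupled carrier of system A that imports small neutral amino acids (ENSMUSG00000022462, chromosome 15, 96687392 to 96699730, minus strand). It stood at 148, 113 and 102 CPM in controls and 258, 132 and 136 CPM at high load. High-load 1 was alone above the controls, and the other 2 lay below control 1. The log2 fold change was 0.53 with SE 0.29 (edgeR adjusted p 0.303), 0.49 without control 2 and 0.15 with SE 0.16 without high-load 1. That 1 library set most of the difference.

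Slc6a9 encodes GLYT1, the sodium-coupled carrier of glycine (ENSMUSG00000028542, chromosome 4, 117834506 to 117875198, plus strand). Its exons overlap those of B4galt2, Ccdc24 and Gm17114 on the other strand, and the sources used here do not state the strand setting of the counting. It stood at 10.2, 9.41 and 8.87 CPM in controls and 13.7, 9.76 and 9.12 CPM at high load. Again only high-load 1 was above the controls. The log2 fold change was 0.20 with SE 0.19 (edgeR adjusted p 0.557), 0.19 without control 2 and -0.0045 with SE 0.15 without high-load 1.

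**Figure D3:**
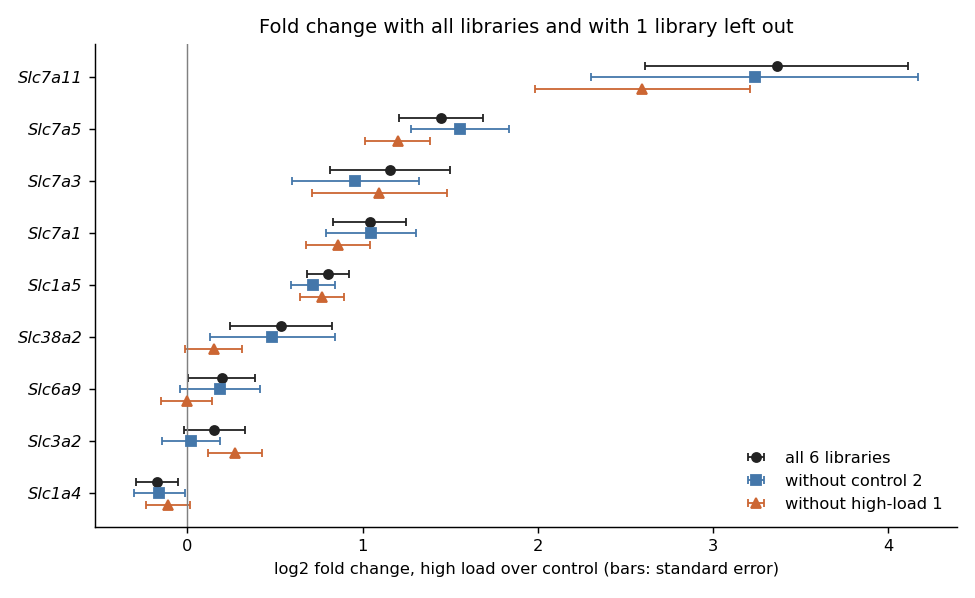
Log2 fold change of high load over control for the 9 genes, with bars for ± 1 standard error, from all 6 libraries, without control 2 and without high-load 1. Slc7a11, Slc7a5, Slc7a3, Slc7a1 and Slc1a5 lie above 0 in all 3 fits, while Slc38a2 and Slc6a9 lie near 0 without high-load 1.

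On the scale per length, the order of levels in controls was Slc3a2 (64.7 ± 10.6 CPM per kilobase, SD, n = 3), Slc1a5 (21.1 ± 2.39), Slc38a2 (13.7 ± 2.73), Slc1a4 (9.29 ± 0.446), Slc7a5 (1.94 ± 0.316), Slc6a9 (1.85 ± 0.130), Slc7a1 (1.46 ± 0.0372), Slc7a3 (0.546 ± 0.263) and Slc7a11 (0.0163 ± 0.0104). Of the neighbours in this order, only Slc7a5 and Slc6a9 overlapped between libraries. At high load Slc7a1 (3.00 ± 0.839) stood before Slc6a9 (2.11 ± 0.481), and only these neighbours overlapped. The other levels at high load were 72.0 ± 10.3 for Slc3a2, 36.7 ± 3.14 for Slc1a5, 19.9 ± 8.09 for Slc38a2, 8.23 ± 1.24 for Slc1a4, 5.28 ± 1.51 for Slc7a5, 1.22 ± 0.0960 for Slc7a3 and 0.171 ± 0.128 for Slc7a11. Exon lengths are unions over all annotated transcripts, 13922 bases for Slc7a11, so genes with rarely used exons are set lower.

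Genes with the most similar pattern were sought by the root mean square difference of log2 levels over the 6 libraries, each gene centred on its control mean. For Slc7a5 the nearest was Macc1 at 0.0819, then Mab21l3 (0.145) and Kif26b (0.154). For Slc7a1 they were Nfkbiz, an inducible regulator of NF-kappaB targets (0.0529), Ly6a (0.0616) and the lysosomal protease gene Ctsd (0.0644). For Slc1a5 they were the chemokine gene Cxcl16 (0.0521), Tacc3 of the mitotic spindle (0.0536) and Selenon (0.0632). For Slc7a11 the nearest were the membrane mucin gene Muc4 (0.272), Scara3 (0.278) and Ahnak2 (0.2998), a looser match. For Slc38a2 they were Rab27b (0.0427), Btg1 (0.0677) and Tmem131l (0.0977). For Slc3a2 they were Nrcam (0.0603), Rhbdl3 (0.0608) and Arhgef17 (0.0620), and for Slc1a4 Mrpl53 (0.0372), Usp3 (0.0481) and Galnt3 (0.0534).

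Other amino acid carriers were more often lower than higher. Of 51 further carriers listed, 40 were tested; 6 had groups apart upward and 12 downward, beside 17.1% and 15.8% of all genes. At an unadjusted p under 0.05, 6 were higher and 11 lower, beside 14.0% and 10.2%, so the upward counts were near those shares. In edgeR's test 0 passed at an adjusted p of 0.05, against 13 in DESeq2, 4 higher and 9 lower, and 0 in limma-voom. DESeq2 called 6.67% of its genes higher and 624 of 16091 lower. The median log2 fold change of the 40 carriers was -0.26. The median of the 9 differed from it in sign with all libraries and without control 2 (-0.30) or high-load 1 (-0.19). Slc38a1, or SNAT1, a system A carrier close to Slc38a2, stood out among them. It was at 7.53, 6.01 and 7.73 CPM in controls and 29.0, 16.3 and 27.0 CPM at high load (log2 fold change 1.76, SE 0.24, edgeR adjusted p 0.0784), with a log2 fold change of 1.65 without control 2 and 1.61 without high-load 1. The groups were apart, as they were for Slc7a2, the cationic carrier CAT2 (log2 fold change 1.01, adjusted p 0.117), Slc7a6, a light chain of Slc3a2 (0.85, or 0.55 without high-load 1, adjusted p 0.142), Slc36a2, a proton-coupled carrier (1.67, adjusted p 0.129), and the lysosomal carrier Slc15a4 (0.26, adjusted p 0.194), all from edgeR. Exons of Slc7a2 and Slc15a4 overlap genes on the other strand.

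Carriers of tubular reabsorption were mostly lower. Of 15 listed and tested, 13 had a fold change below 1 and 8 had groups apart downward, beside 15.8% of all genes, and 1 upward. All of the 15 except Cltrn were already counted among the other amino acid carriers of the paragraph before. Cltrn, an accessory protein and not itself a carrier, was 1 of the 8 downward. The counts of the 15 thus largely repeat those above and are not a separate result. At an unadjusted p under 0.05, 7 were lower, beside 10.2% of all genes, and 1 was higher. In edgeR's adjusted test 0 passed, against 7 in DESeq2, 1 higher and 6 lower, and 0 in limma-voom. These DESeq2 counts stood beside 6.67% of its genes higher and 624 of 16091 lower. The median log2 fold change of the 15 was -0.85, or -0.84 without control 2 and -0.56 without high-load 1. Among the smallest p values were Slc6a20a, an imino acid carrier (41.7, 43.6 and 35.8 against 24.5, 25.1 and 17.6 CPM, edgeR adjusted p 0.0946), the glutamate carrier Slc1a1 (log2 fold change -0.94, adjusted p 0.0981) and the glutamine carrier Slc38a3 (-1.33, adjusted p 0.117), the last -0.88 without control 2. The apical cystine carrier took the other direction from Slc7a11: Slc7a9 stood at 255, 245 and 234 CPM in controls and 76.9, 191 and 140.4 CPM at high load (log2 fold change -0.84, or -0.56 without high-load 1, edgeR adjusted p 0.167), and its heavy chain Slc3a1 had a log2 fold change of -0.91 (adjusted p 0.137). Exons of Slc3a1, Slc1a1 and Slc6a20a overlap genes on the other strand. Slc6a17 and Slc6a13 of the same family as the apical carriers were lower as well (-0.51 and -0.93, adjusted p 0.0946 and 0.1296), and so was the proton-coupled Slc36a1 (-0.32, or -0.17 without high-load 1, adjusted p 0.219). The 12 proximal tubule markers moved with these carriers. All 12 had a fold change below 1, 8 of them with groups apart, their summed level was 16416 to 19607 CPM in controls and 4770 to 13886 CPM at high load, none was at 0 in any library, and their part in the carriers' levels was not tested.

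**Figure D4:**
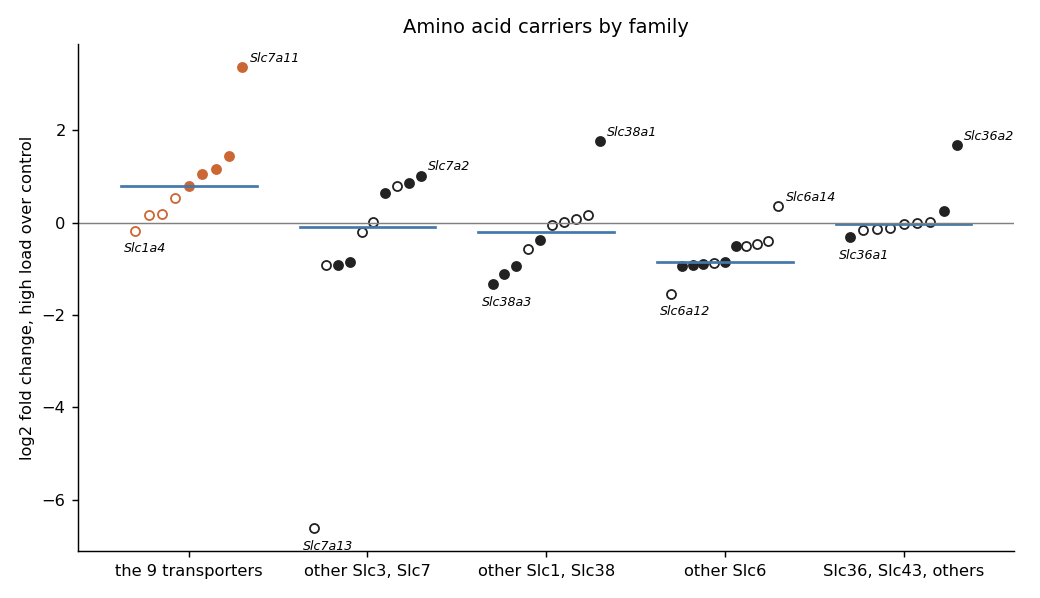
Log2 fold change of high load over control for the 9 transporters (left) and 40 other tested amino acid carriers by family, with filled points for genes whose groups do not overlap, open points for the rest, a blue line at each median, and names at the highest and lowest gene. The median of the 9 is 0.80 and that of the Slc6 family -0.85, and Slc7a13, the lowest point, stands at -1.18 without control 2.

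The rest of the ATF4 pathway was measured in 40 genes, 17 regulators and 23 enzymes and effectors, with none of the 9 among them. Of these, 19 had groups apart upward and 3 downward, beside 17.1% and 15.8% of all genes. At an unadjusted p under 0.05, 17 were higher and 3 lower, beside 14.0% and 10.2%. In edgeR's adjusted test 1, Atf5, rose, against 18 called by DESeq2, 16 higher and 2 lower, and 0 by limma-voom. DESeq2 called 6.67% of its genes higher and 624 of 16091 lower. The median log2 fold change of the 40 was 0.34, 0.35 without control 2 and 0.24 without high-load 1. The mRNA of Atf4 itself stood at 125, 115 and 113 CPM in controls and 173, 136 and 144 CPM at high load (log2 fold change 0.36, SE 0.12, edgeR adjusted p 0.148), although ATF4 is regulated largely at translation. Log2 fold changes were 2.59 for Atf5 (edgeR adjusted p 0.0218, or 0.259 without control 2 and 0.106 without high-load 1), 1.29 for Ddit3 (0.0772), 3.88 for the pseudokinase Trib3 (0.0772), 2.02 for Mthfd2 (0.0696), 1.83 for Aldh18a1 (0.0735), 1.95 for Asns, asparagine synthetase (0.0772), and 1.20 for Chac1, which breaks down glutathione (0.137), with edgeR adjusted p in brackets. The 3 with groups apart downward were Cth (-0.82, edgeR adjusted p 0.135), Shmt2 (-0.67, 0.152) and Eif2ak1 (-0.22, 0.184). In 18 of the 40 the groups overlapped. Of the 40 genes, 15 had their highest high-load level in high-load 1, as Slc7a11 and Slc7a5 did, 6 in high-load 2 and 19 in high-load 3. Atf4 was among the 15, and Atf5, Ddit3, Trib3, Mthfd2, Aldh18a1, Asns and Chac1 were among the 19. Exons of Atf5, Ddit3, Shmt2 and Eif2ak1 overlap genes on the other strand.

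Slc7a11 is also a known target of NRF2, the antioxidant transcription factor. Of 10 NRF2 targets and glutathione genes, 1 had groups apart upward and 2 downward, near the 17.1% and 15.8% of all genes. At an unadjusted p under 0.05, 1 was higher and 3 lower, beside 14.0% and 10.2% of all genes. In edgeR's adjusted test 0 passed, against 3 in DESeq2, 1 higher and 2 lower, and 0 in limma-voom. DESeq2 called 6.67% of its genes higher and 624 of 16091 lower. The median log2 fold change of the 10 was -0.18, or -0.04 without control 2 and -0.20 without high-load 1. Heme oxygenase, Hmox1, was the higher one (37.0, 31.8 and 34.6 against 70.1, 38.2 and 57.3 CPM, edgeR adjusted p 0.141), and Gclm and Gclc, the subunits of the first enzyme of glutathione synthesis, had log2 fold changes of -0.50 (adjusted p 0.154) and -0.36 (adjusted p 0.160). Exons of Gclm overlap those of Gm6061 and Gm17494. Nqo1 stood at 59.9, 152 and 74.3 CPM in controls and 114, 45.5 and 33.8 CPM at high load, with groups that overlapped and control 2 highest (log2 fold change -0.56, or -0.06 without control 2 and -1.26 without high-load 1).

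Markers of macrophages, injured tubule, B and plasma cells and fibroblasts were higher in sum in every high-load library, while those of T and NK cells overlapped in sum. Of 9 macrophage and dendritic cell markers, 8 had groups apart upward, beside 17.1% of all genes. The summed level of these 9 was 924 to 1204 CPM in controls and 1682 to 2903 CPM at high load, and none was at 0. Of 7 T and NK cell markers, 1 had groups apart, near the 17.1% of all genes, with summed levels of 12.8 to 31.97 CPM in controls and 26.0 to 63.1 CPM at high load. Of 7 markers of injured tubule, 6 had groups apart upward, beside the same 17.1%, with sums of 2609 to 3860 CPM in controls and 5639 to 11416 CPM at high load. Of 6 B and plasma cell markers, 2 had groups apart upward, with sums of 96.3 to 152 CPM in controls and 240 to 1201 CPM at high load. For 6 fibroblast and myofibroblast markers the count was 3, with sums of 267 to 517 CPM in controls and 540 to 853 CPM at high load. High-load 2 was the highest library for the fibroblast sum. High-load 1 was the highest for the other sums of this paragraph, as it was for Slc7a11, Slc7a5, Slc7a1, Slc7a3, Slc38a2 and Slc6a9. Without high-load 1, the same counts of 8 macrophage and 6 injured tubule markers had groups apart, beside 20.7% of all genes, as did the 5 transporter genes. The part of these cells in the carriers' levels was not tested.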

How the data were processed

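The authors deposited 1 table of raw read counts per Ensembl gene, with 1 column for each of 6 kidneys. Per the submitters' processing notes, the tools included featureCounts 2.0.1, HISAT2 2.2.1, fastp 0.23.2, SAMtools 1.11 and edgeR, with the build mm10. They do not state the annotation, whether counting used strand, or how multiply mapped reads were counted. Symbols, positions and exon lengths came from GENCODE M21 (mm10), which matched 32235 of 32285 IDs.

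The 9 genes and the lists were chosen with earlier results of these data known. All genes were tested with edgeR 4.0.16 (R 4.3.3), after filterByExpr at a minimum count of 10 and TMM scaling, by its robust quasi-likelihood test of group, two-sided, with Benjamini-Hochberg adjustment over 15955 genes. DESeq2 1.42.0 and limma-voom (limma 3.58.1) were alternatives, and the tests were tested on simulated data. CPM are counts scaled with TMM factors; levels per kilobase divide by exon length. Pairs of libraries of a group differed by 19.98 to 93.1 times counting variance, so none was counted as a repeat. Nothing says whether mice shared a litter or batch, so p-values measure only the spread between these samples.

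Named genes were the 9, the 3 with the smallest p of each other list, comparison genes of the ATF4, NRF2 and reabsorption pathways and the 3 nearest patterns (offset 0.1 CPM, mean of at least 1 CPM, no predicted models) of 7 of the 9 genes. Alternatives were other scaling, filters, tests, the replicate number as a block, load as a number, and each library left out. Promoter sequences are from RefSeq (GRCm38.p6).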

Additional observations from a re-analysis of the deposited data

How the results depend on the processing

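The number of genes that passed edgeR's adjusted test over the whole table was 3, and it was 50 with no filter on low counts, 1698 in DESeq2, 0 in limma-voom, 10 with load as a number, 511 at an adjusted p under 0.1, and 0 to 807 with 1 library left out. Of the 9 transporters 0 passed, against 5 in DESeq2, 4 at an adjusted p under 0.1, and 0 to 4 with 1 library left out; the 4 came without high-load 2 and were Slc7a11, Slc7a5, Slc7a1 and Slc1a5. The cause of these differences was not tested. Over the alternatives run for each, the median log2 fold change of the 9 ranged from 0.72 to 0.92. The count of the 9 with an unadjusted p under 0.05 was 5 or 6. The count with groups apart was 5 or 6 over other scalings, other filters and 1 library left out. Not all of these were higher. Without high-load 3 the 6 on both counts took in Slc1a4, which was lower (log2 fold change -0.31, edgeR unadjusted p 0.0186). With library totals as the scaling, the median of all genes was 0.13 and the signs of the 9 were kept. With 1 library left out Slc6a9 ranged from -0.0045, its sign reversed without high-load 1, to 0.30; the other 8 kept theirs under all 17 alternatives. Slc38a2 ranged from 0.15 to 0.71 and Slc7a11 from 2.60 to 3.99. Deviations of same-numbered libraries correlated at 0.12, -0.19 and 0.05, and those of differently numbered ones at -0.28 to 0.32. These values gave no sign of pairing by replicate number. Whether mice shared a litter or batch was not tested. With the replicate block 1 gene passed over the table and 0 of the 9, and 6 of the 9 had an unadjusted p under 0.05. Depth limits Slc7a11 most, with 12 counts over the controls.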

Other observations

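Slc7a13, a carrier of acidic amino acids and cystine in the last part of the proximal tubule that is known to be higher in male mice, stood at 118 CPM in the library labelled control 2 and at 0.142 to 1.31 CPM in the other 5. Its log2 fold change was -6.60 with all libraries and -1.18 without control 2 (edgeR adjusted p 0.158 and 0.402). Markers of red blood cells summed to 1999 CPM in control 2 and to 81.6 to 330.0 CPM in the others. Cyp2e1 stood at 1038 CPM in control 2 and at 72.2 to 183 CPM elsewhere. Slc7a10, a light chain of Slc3a2 that was too low to test, had 36 counts in high-load 1 and 0 to 4 in the other libraries.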
